A study of Mus musculus with 7 samples.

Results

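Transcripts of 9 genes that mark the duct cells of the pancreas were followed in islets of diabetic mice: Krt19, Krt7, Krt8, Krt18, Spp1, Muc1, Cftr, Cldn4 and Onecut1. They were listed by symbol and found through their mouse Ensembl identifiers, and all 9 were among the 51912 gene identifiers counted. The study asked what raised systemic adipsin, a serine protease of the complement system, does to the islets of db/db mice, which lack a working leptin receptor. The AAV-GFP group, of 4 mice, was db/db, received an adeno-associated virus (AAV) vector for green fluorescent protein and served as the control. The AAV-Adipsin group, of 3 mice, was also db/db and received an AAV vector for adipsin. Islets of both groups were taken after 4 weeks and cultured for 12 h before RNA was extracted, so the mutation, the culture and a vector are shared by every library. The age of the mice and the promoter, dose and route of the vectors do not appear in the labels. Each mouse gave 1 library, and the submitters call the mice separate biological replicates.

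Pancreatic ducts carry bicarbonate-rich fluid and the digestive enzymes of acinar cells to the gut. Their lining cells are simple epithelium with keratin filaments, tight junctions, a mucin-coated surface and the chloride channel CFTR, which acts in fluid secretion. Islets are isolated by digesting the pancreas, and pieces of duct and acinar tissue can stay with them. Several of these genes are also used by other cells, including acinar cells, macrophages and endocrine cells, so none of them counts duct cells by itself.

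The 9 genes lie on 6 chromosomes of the GRCm38 build, with coordinates of the whole gene from GENCODE M21. Those with identifiers ENSMUSG00000023039 (Krt7, chr15:101411043-101430313, plus strand), ENSMUSG00000049382 (Krt8, chr15:101996698-102004482, minus strand) and ENSMUSG00000023043 (Krt18, chr15:102028180-102032027, plus strand) share chromosome 15. Krt19, ENSMUSG00000020911, is on the minus strand at chr11:100140810-100148665. Spp1, ENSMUSG00000029304, at chr5:104435118-104441050 on the plus strand, and Cldn4, ENSMUSG00000047501, at chr5:134945119-134946934 on the minus strand, are both on chromosome 5. Muc1, ENSMUSG00000042784, is at chr3:89229057-89233381, Cftr, ENSMUSG00000041301, at chr6:18170687-18322768 and Onecut1, ENSMUSG00000043013, at chr9:74861921-74891781, each on the plus strand.

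The RefSeq promoter table for GRCm38.p6 held 8 of the 9 genes, all but Krt19. The stretches before the start are shown for 4 genes that were highest in AAV-GFP replicate 3 and AAV-Adipsin replicate 2, and for Krt7, whose level hardly varied. The 4 genes did not share all of their low libraries. Stretches end where the RefSeq transcript begins or, for Krt8, Krt18 and Krt7, where an exon of a GENCODE coding transcript begins. Capitals mark every match, on either strand, to the 6 motifs searched. These were the TATA box TATAAA, the AP-1 motif TGANTCA, the GC box GGGCGG, the ETS motif CCGGAAG, the CCAAT box and the Onecut motif ATCGAT. The Krt8 stretch is chr15:102004483-102004592 on the minus strand and the Krt18 stretch is chr15:102027966-102028179 on the plus strand. That of Cldn4 is chr5:134946935-134947184 on the minus strand, that of Muc1 chr3:89228806-89229055 on the plus strand and that of Krt7 chr15:101412153-101412401 on the plus strand. The Krt7 stretch comes before the RefSeq start but lies inside the GENCODE span of the gene given above, after its first base.
Krt8: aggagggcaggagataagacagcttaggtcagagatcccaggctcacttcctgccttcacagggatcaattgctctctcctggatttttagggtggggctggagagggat
Krt18: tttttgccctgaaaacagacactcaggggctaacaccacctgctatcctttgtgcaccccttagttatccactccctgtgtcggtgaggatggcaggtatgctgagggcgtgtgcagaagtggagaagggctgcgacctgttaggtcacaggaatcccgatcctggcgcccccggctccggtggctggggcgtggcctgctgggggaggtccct
Cldn4: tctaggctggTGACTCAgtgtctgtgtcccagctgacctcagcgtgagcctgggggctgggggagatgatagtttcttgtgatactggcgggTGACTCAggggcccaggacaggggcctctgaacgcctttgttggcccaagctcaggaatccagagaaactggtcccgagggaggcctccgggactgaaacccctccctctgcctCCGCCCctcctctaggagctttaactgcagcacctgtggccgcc
Muc1: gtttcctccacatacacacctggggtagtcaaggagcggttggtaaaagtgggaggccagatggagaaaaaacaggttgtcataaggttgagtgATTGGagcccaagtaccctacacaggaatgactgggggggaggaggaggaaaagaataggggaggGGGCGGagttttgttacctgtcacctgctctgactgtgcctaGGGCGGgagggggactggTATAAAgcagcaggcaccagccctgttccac
Krt7: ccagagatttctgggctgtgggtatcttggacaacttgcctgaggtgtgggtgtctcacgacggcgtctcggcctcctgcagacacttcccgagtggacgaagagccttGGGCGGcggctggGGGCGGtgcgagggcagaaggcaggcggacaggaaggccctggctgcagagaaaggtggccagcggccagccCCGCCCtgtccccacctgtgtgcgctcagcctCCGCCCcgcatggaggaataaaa
The Cldn4 stretch held TGANTCA 2 times, a motif found in 6.75% of 32851 promoters over the same length, and GGGCGG 1 time, found in 32.7%. The Muc1 stretch held TATAAA 1 time (12.4% of promoters), GGGCGG 2 times and CCAAT 1 time (33.8%). The Krt7 stretch held GGGCGG 4 times, against 32.6% of promoters with at least 1 match in that length. None of the 6 motifs was found in the Krt8 or the Krt18 stretch, which are shorter. With no match in those stretches, no motif could be common to the 4 genes that shared their highest libraries. A match here is a description of letters, not of a site that is bound.

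Total counts per library ran from 29601707 to 43997400, and 16504 genes had enough counts to be tested, all 9 duct genes among them. Levels are given as CPM, counts scaled to a common library total, on library sizes scaled by TMM, a method that evens out differences in composition. Endocrine markers such as the insulins summed to between 189000 and 230600 CPM in each library. The libraries of AAV-GFP replicate 1 and AAV-Adipsin replicate 1 are described in the labels by the name of the treatment and the other 5 by a db number; this is a difference of labels, not a stated batch. These 2 libraries stood apart from the other 5 at many genes, and values are therefore also given by description style.

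Keratins form the filaments of epithelial cells, in which a type II keratin such as Krt7 or Krt8 pairs with a type I keratin such as Krt18 or Krt19. Krt19, the keratin most used to trace duct cells, was at 31.5, 38.1, 86.2 and 49.2 CPM in AAV-GFP replicates 1 to 4 and at 19.05, 77.2 and 34.0 CPM in AAV-Adipsin replicates 1 to 3. AAV-GFP replicate 3 and AAV-Adipsin replicate 2 were high, AAV-Adipsin replicate 1 was lowest, and the groups overlapped. Krt19 averaged 51.3 ± 24.4 CPM in AAV-GFP (SD, n = 4) and 43.4 ± 30.2 CPM in AAV-Adipsin (SD, n = 3). The log2 fold change was -0.24 (SE 0.54, AAV-Adipsin over AAV-GFP), with an adjusted p of 1.00 in edgeR's quasi-likelihood test with Benjamini-Hochberg adjustment over all genes tested. Its sign turned positive without AAV-GFP replicate 3 (0.13) or without AAV-Adipsin replicate 1 (0.11).

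Krt8, the type II keratin of simple epithelia, was at 328, 396, 661 and 324 CPM in AAV-GFP and at 272, 686.5 and 335 CPM in AAV-Adipsin. Krt18, its usual type I partner, was at 343.5, 417, 629 and 358 CPM in AAV-GFP and at 301, 600.5 and 355.5 CPM in AAV-Adipsin. For both partners the same libraries, AAV-GFP replicate 3 and AAV-Adipsin replicate 2, stood above the other 5, and the treatment groups overlapped. The log2 fold change of Krt8 was 0.013 (SE 0.38) and that of Krt18 was -0.060 (SE 0.29), each with an adjusted p of 1.00 in edgeR's quasi-likelihood test. Without AAV-Adipsin replicate 2 these values were -0.49 and -0.41, and without AAV-GFP replicate 3 they were 0.31 and 0.17. Krt8 was also below 0 without AAV-GFP replicate 1 (-0.081), 2 (-0.0095) or 4 (-0.097), and Krt18 was above 0 without AAV-Adipsin replicate 1 (0.13) or 3 (0.059).

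Krt7 behaved otherwise. This duct keratin was at 943, 851, 857 and 861 CPM in AAV-GFP and at 883, 829 and 788 CPM in AAV-Adipsin. AAV-GFP replicate 1 was highest and AAV-Adipsin replicate 3 lowest, and the ranges of the groups overlapped. The log2 fold change was -0.075 (SE 0.084, 95% interval -0.27 to 0.12), with an adjusted p of 1.00 in edgeR's quasi-likelihood test. The highest library was 1.20-fold above the lowest, a spread reached by 83.1% of the 12620 genes with a mean log2 CPM of at least 1. The same fold was 4.53 for Krt19, which only 1.66% of these genes reached, 2.52 for Krt8 (5.71%) and 2.09 for Krt18 (9.56%). An antisense gene is annotated opposite Krt7 and a noncoding RNA opposite Krt8, and no source used here gives the strand setting of the counting, so reads of the opposite strands cannot be told apart. Of the 50-base stretches of Krt8, 26.9% also occur elsewhere, in the pseudogene Krt8-ps, to which 39 to 103 counts a library were assigned.

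**Figure D1:**
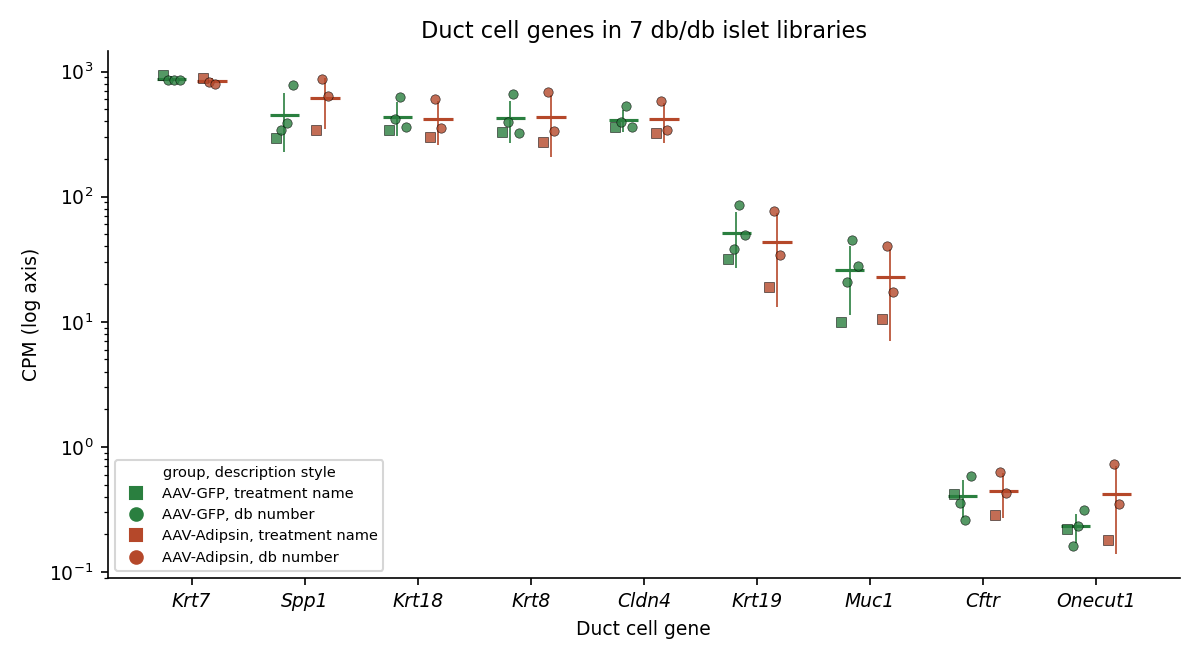
Levels of the 9 duct cell genes in each library, in CPM on a log axis, with the mean and SD of AAV-GFP (n = 4) and AAV-Adipsin (n = 3). Ranges of the groups overlap for every gene, and the points of Krt7 lie within 1.20-fold while those of Krt19 span 4.53-fold.

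At the apical side of the duct lining, Muc1 encodes a membrane mucin and Cldn4 a tight junction protein. Muc1 was at 9.96, 20.7, 44.8 and 28.0 CPM in AAV-GFP and at 10.55, 40.45 and 17.3 CPM in AAV-Adipsin. Cldn4 was at 358, 395, 533 and 358 CPM in AAV-GFP and at 321, 582 and 341.5 CPM in AAV-Adipsin. AAV-GFP replicate 3 and AAV-Adipsin replicate 2 were again the highest for both genes, and the groups overlapped. The log2 fold change of Muc1 was -0.19 (SE 0.61) and that of Cldn4 was 0.013 (SE 0.23), each with an adjusted p of 1.00 in edgeR's quasi-likelihood test. Leaving out AAV-GFP replicate 3 moved Muc1 to 0.22, leaving out AAV-Adipsin replicate 1 moved it to 0.15, and leaving out AAV-Adipsin replicate 2 moved Cldn4 to -0.30. Cldn4 was also below 0 without AAV-GFP replicate 1 (-0.035) or 4 (-0.046). The highest Muc1 library was 4.498-fold above the lowest, which 1.69% of genes reached, and the Cldn4 fold was 1.81 (15.3%).

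Spp1 encodes osteopontin, a secreted phosphoprotein made by duct cells and also by activated macrophages. It was at 294, 339, 385 and 780.2 CPM in AAV-GFP and at 339.5, 877 and 641 CPM in AAV-Adipsin. Here AAV-Adipsin replicates 2 and 3 and AAV-GFP replicate 4 were high and the other 4 libraries low, an order unlike that of the keratins. The groups overlapped, and the log2 fold change was 0.46 (SE 0.43, 95% interval -0.54 to 1.46), with an adjusted p of 1.00 in edgeR's quasi-likelihood test. Leaving out 1 library at a time moved it from 0.13, without AAV-Adipsin replicate 2, to 0.87, without AAV-GFP replicate 4. Of its 50-base stretches, 9.05% also occur elsewhere, in Gm42793, a gene model that shares its exons and had 3 to 12 counts.

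Cftr, the chloride channel, and Onecut1, a transcription factor of duct and early pancreatic cells also called HNF6, were near the lower limit of what was counted. Cftr had 19, 11, 10 and 17 counts in AAV-GFP and 11, 20 and 17 in AAV-Adipsin. Onecut1 had 10, 5, 9 and 9 counts in AAV-GFP and 7, 23 and 14 in AAV-Adipsin. The highest count of Onecut1, in AAV-Adipsin replicate 2, was 0.729 CPM (95% exact Poisson interval 0.462 to 1.09), and the lowest, in AAV-GFP replicate 2, was 0.162 CPM (0.0527 to 0.379). These intervals take in counting error alone, because reads without molecular identifiers are not independent molecules. For Cftr, the interval of the highest library, 0.387 to 0.979 CPM in AAV-Adipsin replicate 2, overlapped that of the lowest, 0.125 to 0.478 CPM in AAV-GFP replicate 3. Log2 fold changes were 0.14 (SE 0.41) for Cftr and 0.83 (SE 0.50) for Onecut1, each with overlapping groups and an adjusted p of 1.00 in edgeR's quasi-likelihood test. Cftr fell below 0 without AAV-Adipsin replicate 2 (-0.17) or AAV-GFP replicate 3 (-0.028), and Onecut1 came to 0.21 without AAV-Adipsin replicate 2. A noncoding gene on the same strand, Gm20649, shares 54.4% of the 50-base stretches of Onecut1, and 0 to 1 counts were assigned to it.

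None of the 9 duct cell genes passed the threshold between AAV-Adipsin and AAV-GFP, where 0.00606% of all genes tested did in edgeR's quasi-likelihood test. At an unadjusted p under 0.05 the count was also 0 of 9, against 1.16% of all genes, and DESeq2 and limma-voom called 0 of 9 as well, where DESeq2 called 0.0242% of all genes. The groups' ranges were apart for 0 of 9, against 2.73% of all genes. Of the 9 log2 fold changes, 5 were above 0 and 4 below, with a median of 0.013, beside 46.2% above 0 and a median of -0.011 over all genes. The median of the 9 ran from -0.30 without AAV-Adipsin replicate 2 to 0.17 without AAV-GFP replicate 3. The smallest unadjusted p was that of Onecut1, at 0.135. The intervals do not show that levels were alike: they reached from -1.53 to 1.05 for Krt19 and from -1.65 to 1.27 for Muc1, and were narrowest for Krt7.

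**Figure D2:**
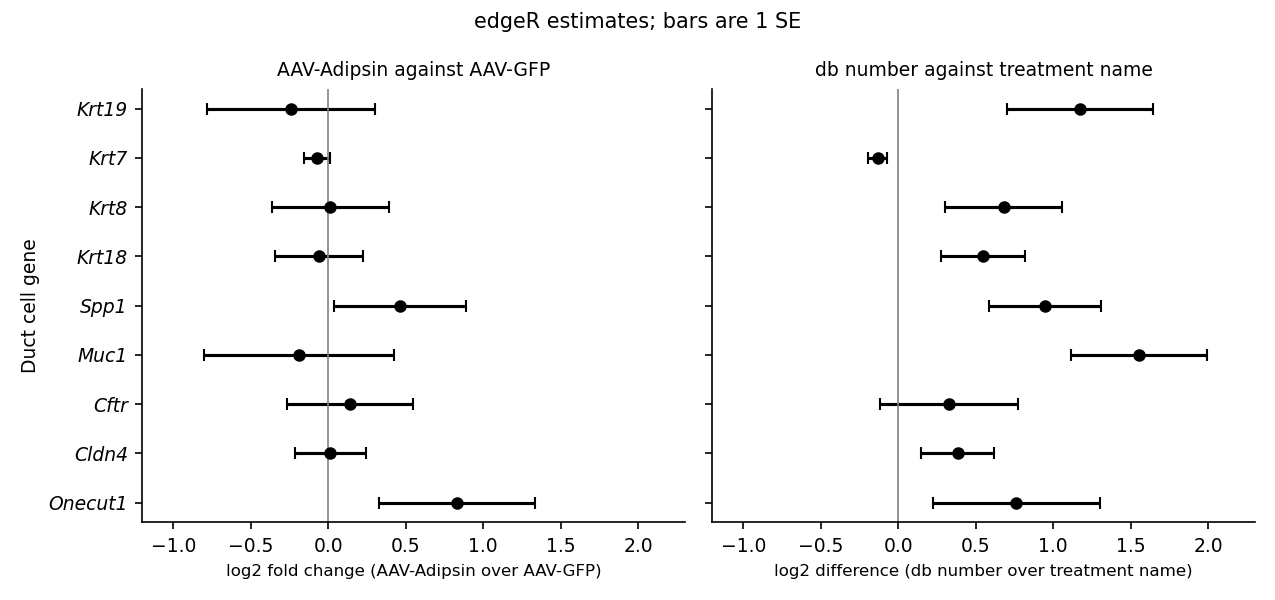
Log2 differences of the 9 duct cell genes with the SE as bars, for AAV-Adipsin over AAV-GFP and for libraries described by a db number over those described by a treatment name. The 95% intervals of the treatment contrast, which are wider than the bars and not drawn, include 0 for all 9 genes. By description style Muc1 has the largest value, 1.55.

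Levels were compared between genes after division by length, as RPKM, which is CPM per kilobase of annotated exon, over all 7 libraries. On this scale Spp1 was at 317 ± 145 RPKM (SD, n = 7), Krt18 at 299 ± 91.4, Cldn4 at 227 ± 56.4 and Krt8 at 219 ± 87.5 RPKM. Krt7 followed at 122 ± 6.76 RPKM, Krt19 at 25.8 ± 13.4, Muc1 at 10.5 ± 5.91, Onecut1 at 0.0760 ± 0.0475 and Cftr at 0.0546 ± 0.0183 RPKM. The order did not hold beyond the spread for 3 neighbouring pairs: Spp1 was above Krt18 in 3 of 7 libraries, Cldn4 above Krt8 in 5 of 7 and Onecut1 above Cftr in 4 of 7. Every other neighbour kept its place in 7 of 7 libraries. Krt19, the standard duct keratin, was thus well under Krt8 and Krt18 in RPKM in each library. The order rested in part on the length used, most of all for Krt7: its 7049 annotated exon bases gave 122 RPKM, the 4094 of its longest coding transcript gave 209.8 RPKM, and the 1586 within the RefSeq bounds gave 541.5 RPKM, then above Spp1 in 6 of 7 libraries. Within the RefSeq bounds Onecut1 came to 0.1715 RPKM and was above Cftr in 7 of 7 libraries, and Krt8, at 238 RPKM, passed Cldn4, at 228 RPKM, in the mean but was above it in 3 of 7 libraries.

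The type II keratins Krt7 and Krt8 together stood to the type I keratins Krt18 and Krt19 at a ratio of summed RPKM of 1.18, 1.04, 0.949 and 1.04 in AAV-GFP and of 1.20, 1.02 and 1.06 in AAV-Adipsin. The means were 1.05 ± 0.0939 (SD, n = 4) and 1.10 ± 0.0955 (SD, n = 3), and the groups overlapped. With the shorter Krt7 length inside the RefSeq bounds, the mean ratio over all libraries was 2.41 in place of 1.07. Its range over the libraries also depended on length: 0.949 to 1.20 with all annotated exons and 1.77 to 3.09 within the RefSeq bounds. Between the usual partners, Krt8 stood to Krt18 at 0.663 to 0.839 in RPKM, a narrower range than that of Krt7 to Krt8, 0.336 to 0.901.

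Profiles were compared by the root mean square difference between log2 CPM values, each centred on the gene's mean over the 7 libraries. This difference was 0.0998 between Krt18 and Cldn4, 0.116 between Krt8 and Krt18, 0.188 between Krt8 and Cldn4 and 0.270 between Krt19 and Muc1. Spp1 was nearest to Onecut1 (0.315) and then to Cftr (0.380), both from few counts. The largest difference, 0.836, was between Krt7 and Muc1. The measure did not divide the genes into closed sets: Muc1 and Cldn4, which share their highest libraries, differed by 0.565, more than Krt7 and Cldn4, at 0.333. These values describe 7 libraries that all genes share and carry no test.

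**Figure D3:**
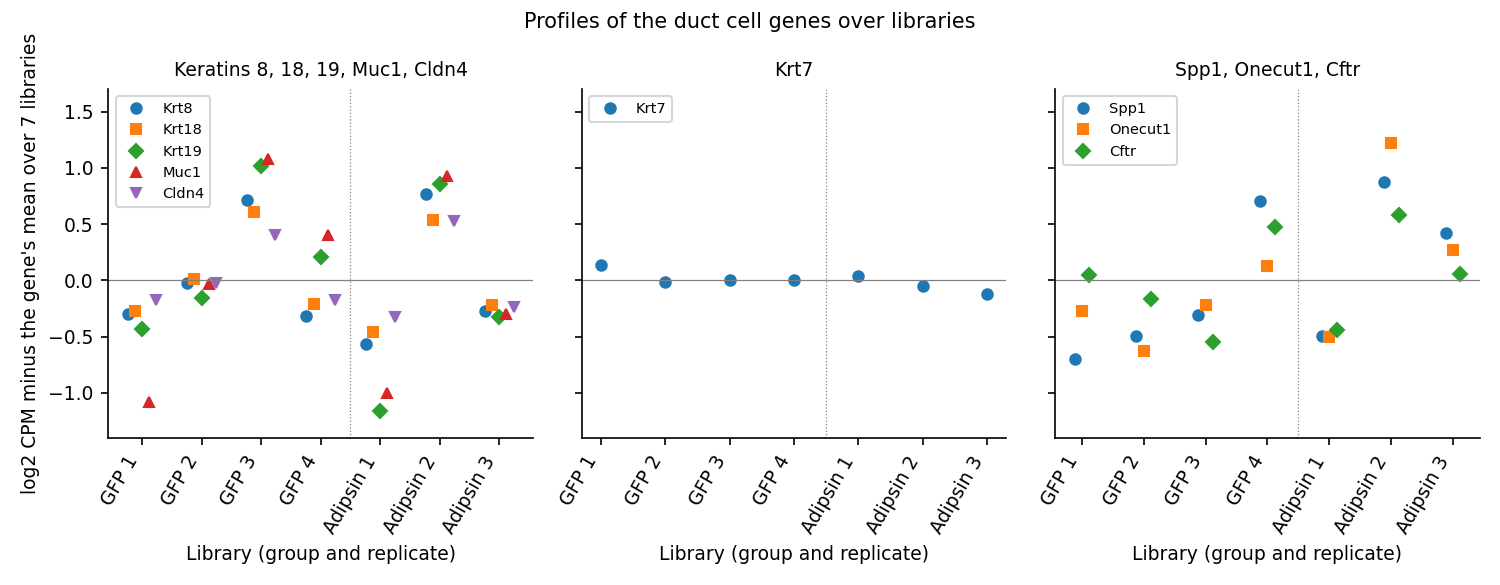
Log2 CPM of each duct cell gene minus its mean over the 7 libraries. The 5 genes on the left peak in AAV-GFP replicate 3 and AAV-Adipsin replicate 2, Krt7 stays near 0, and Spp1, Onecut1 and Cftr are highest in AAV-Adipsin replicate 2.

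Among 12613 other genes, the profiles nearest to that of Krt19 were those of Sfn, an epithelial 14-3-3 protein, at a root mean square difference of 0.21, B4galnt1 at 0.21, Shisa4 at 0.22, Scd1, a fatty acid desaturase, at 0.26 and Celsr1, an adhesion receptor of planar cell polarity, at 0.26. Sfn was at 14.5, 14.7, 27.5 and 21.5 CPM in AAV-GFP and at 9.46, 32.55 and 11.8 CPM in AAV-Adipsin, with its highest values in the libraries where Krt19 was high. The genes nearest to Spp1, chosen after its values were seen, were Dpysl3 (0.095), Gas7 (0.10), Mmp14 (0.13), Fgf2 (0.14) and Procr (0.15). Mmp14, a membrane-bound protease of the matrix, was at 13.25, 12.2, 14.2 and 29.04 CPM in AAV-GFP and at 13.3, 32.8 and 21.3 CPM in AAV-Adipsin, with the same 3 libraries high as for Spp1.

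Markers of other cells moved with these levels, and their part in the results was not tested. In bulk RNA, fewer cells of a type and less RNA per cell cannot be told apart. The 18 acinar genes summed to 5760, 10350, 20160 and 2996 CPM in AAV-GFP and to 4356, 14540 and 3791 CPM in AAV-Adipsin. Their sum was highest in AAV-GFP replicate 3 and next in AAV-Adipsin replicate 2, where Krt8, Krt18, Krt19, Muc1 and Cldn4 were also high. The match was not complete, since AAV-GFP replicate 4 had the lowest acinar sum and the third highest Krt19 and Muc1 levels. Ptf1a, the acinar transcription factor, was at 4.21 CPM in AAV-GFP replicate 3 and 1.81 CPM in AAV-Adipsin replicate 2, and at most 0.974 CPM in the other 5 libraries. By treatment, 18 of 18 acinar genes were below 0 with a median log2 fold change of -0.36, and none passed the threshold in edgeR's quasi-likelihood test or had an unadjusted p under 0.05. Without AAV-GFP replicate 3 that median was 0.26.

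Beside Spp1, the 10 stellate and mesenchymal genes summed to 139, 93.1, 127 and 360.1 CPM in AAV-GFP and to 159, 218 and 211 CPM in AAV-Adipsin. The 3 libraries with the highest sums were those with the highest Spp1. The 8 endothelial genes summed to 413.6, 396, 409 and 637 CPM in AAV-GFP and to 475, 578 and 497 CPM in AAV-Adipsin, with the same 3 libraries highest, and 7 of 8 had log2 fold changes above 0 (median 0.19), none past the threshold. The 12 macrophage genes summed to 144, 163, 150.5 and 214 CPM in AAV-GFP and to 157, 342 and 176 CPM in AAV-Adipsin. The same 3 libraries were highest, in the same order as for Spp1, with AAV-Adipsin replicate 2 first. Log2 fold changes of the macrophage genes were above 0 for 12 of 12, with a median of 0.53, but 0 of 12 passed the threshold. Without AAV-Adipsin replicate 2 the median was -0.038. Of 7 mesothelial genes, which mark another keratin-rich epithelium, 2 had enough counts to be tested, Upk3b, Bnc1 and Upk1b had at most 3 counts in every library, and the sum ran from 6.75 to 15.65 CPM in AAV-GFP and from 6.94 to 12.8 CPM in AAV-Adipsin. Msln, a defining mesothelial gene, was lowest in AAV-Adipsin replicate 2, at 4.76 CPM, and highest in AAV-GFP replicate 1, at 14.2 CPM. In AAV-GFP replicate 3, where Krt8, Krt18 and Krt19 were high as in AAV-Adipsin replicate 2, Msln was at 10.8 CPM.

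**Figure D4:**
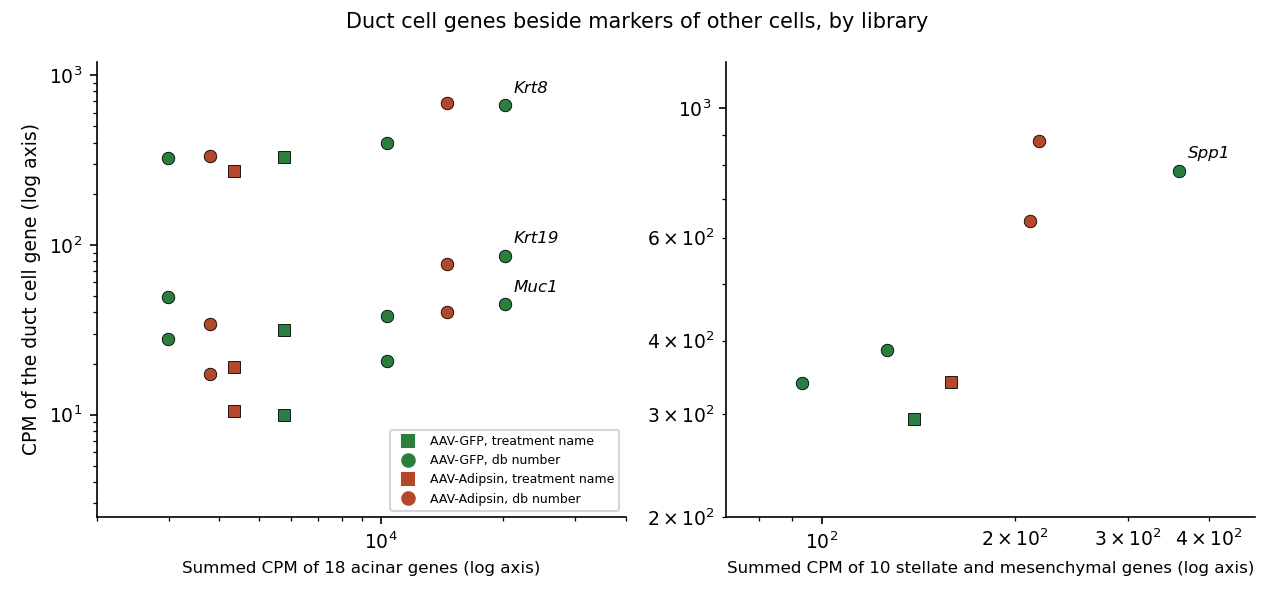
Duct cell genes against summed marker CPM of other cells, 1 point per library, on log axes: Krt8, Krt19 and Muc1 beside the 18 acinar genes, and Spp1 beside the 10 stellate and mesenchymal genes. The libraries with the 2 highest acinar sums, 20160 and 14540 CPM, have the 2 highest values of each of the 3 genes on the left.

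Between libraries described by a db number (5) and by a treatment name (2), the fit with treatment in the model put 8 of 9 duct genes above 0 and Krt7 below, with a median of 0.68, beside 50.8% above 0 and a median of 0.0055 over all genes. None of the 9 passed the threshold in edgeR's quasi-likelihood test, where 9.79% of all genes did. Muc1 had the largest value, 1.55 (SE 0.44, adjusted p = 0.0782), and it did pass in DESeq2 (adjusted p = 0.0144) and in edgeR without AAV-Adipsin replicate 3 (adjusted p = 0.0499). Many other genes passed by style in these fits too, 2533 of 16504 in DESeq2 and 501 in edgeR without that library. Krt19 was at 1.17 (SE 0.47, adjusted p = 0.172), Spp1 at 0.95 (SE 0.36, adjusted p = 0.150) and Krt8 at 0.68 (SE 0.38, adjusted p = 0.294). At an unadjusted p under 0.05 there were 3 of 9 genes, Muc1, Spp1 and Krt19, near the 28.2% of all genes. The ranges were apart for 4 of 9, Krt19, Krt18 and Muc1 higher and Krt7 lower in db number libraries, against 37.6% of all genes, which is again near the background.

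Treatment differences within each style were set side by side. The treatment-named difference is AAV-Adipsin replicate 1 against AAV-GFP replicate 1 alone and has no replication. That with a db number is AAV-Adipsin replicates 2 and 3 against AAV-GFP replicates 2 to 4. For Krt19 the difference in log2 CPM, AAV-Adipsin minus AAV-GFP, was -0.72 between the treatment-named libraries and -0.09 between those with a db number. For Spp1 the values were 0.21 and 0.68, for Onecut1 -0.23 and 0.99 and for Krt8 -0.27 and 0.13. For Krt7 they were -0.10 and -0.08. The test of the difference between styles called none of the 9, nor any of the 16504 genes, in edgeR's quasi-likelihood test, with 135 genes at an unadjusted p under 0.05.

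In wider lists of duct and epithelial genes, none passed the threshold by treatment in edgeR's quasi-likelihood test, and 1, Itga9, had an unadjusted p under 0.05, as did 1.16% of all genes. Of 10 duct transcription factors, all tested, 4 were above 0 and 6 below (median -0.0052). Sox9, the duct progenitor factor, was at 2.82, 2.21, 3.27 and 5.17 CPM in AAV-GFP and at 1.61, 5.45 and 3.00 CPM in AAV-Adipsin. Onecut2, the paralog of Onecut1, was at 2.87, 3.96, 2.75 and 8.83 CPM in AAV-GFP and at 3.91, 9.76 and 9.30 CPM in AAV-Adipsin. Its 3 high libraries were those of Spp1, and its log2 fold change was 0.74 (SE 0.47). Of 14 genes of ion and fluid transport, 10 were tested, 8 above 0 and 2 below (median 0.079), with Ano1, a chloride channel, at 0.32 (SE 0.29) and Kcnn4, a potassium channel, at 0.28 (SE 0.22).

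Of 8 other keratins of epithelia, 6 were tested, 2 above 0 and 4 below (median -0.025). Krt20 was at 2.29, 2.79, 9.32 and 2.31 CPM in AAV-GFP and at 1.71, 14.2 and 2.23 CPM in AAV-Adipsin, high in the libraries where Krt8 was high. Of 18 junction genes, 17 were tested, 9 above 0 and 8 below (median 0.031), with Cldn1 at 0.57 (SE 0.30) and Cdh1, which encodes E-cadherin, at 0.046 (SE 0.12). Of 13 mucins, trefoil factors and apical genes, 9 were tested, 4 above 0 and 5 below (median -0.026), and Muc6 and Muc5b had at most 3 counts in every library. Of 7 genes of the duct cilium, 5 were above 0 and 2 below (median 0.014), with Pkhd1, the gene of fibrocystin, at 0.29 (SE 0.17). Of 10 receptors of osteopontin, 9 were tested, 6 above 0 and 3 below (median 0.10). Itga9, an integrin subunit that binds osteopontin, was at 12.1, 10.2, 10.3 and 10.8 CPM in AAV-GFP and at 13.1, 15.85 and 14.7 CPM in AAV-Adipsin, the lowest treated library above the highest control. Ranges were apart, in either direction, for 2.73% of all genes tested. Its log2 fold change was 0.42 (SE 0.12, unadjusted p = 0.00592), with an adjusted p of 1.00 in edgeR's quasi-likelihood test.

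By description style, in contrast, some genes of these lists did pass. Among the junction genes 7 of 17 were higher in db number libraries, beside 5.57% of all genes tested, and 5 of 17 under each of 3 other scalings. Of the ion and fluid transport genes 0 of 10 passed (median 0.0018), and of the cilium genes 0 of 7 (median -0.16). For markers of other cells the signs by style were counted, beside 50.8% of all genes above 0. Above 0 were 18 of 18 acinar (median 1.27), 10 of 10 stellate and mesenchymal (0.55), 11 of 12 macrophage (0.68) and 7 of 8 endothelial genes (0.23). Of these, 0 acinar, 0 stellate and mesenchymal, 1 macrophage and 0 endothelial genes passed the threshold. Their ranges were apart for 1 of 18, 0 of 10, 3 of 12 and 0 of 8, against 37.6% of all genes. Below 0 were 6 of 10 endocrine genes, near the share over all genes, and 2 of 2 mesothelial genes, with ranges apart for 0 of these 2. Tjp3, a tight junction scaffold, was at 18.9 and 20.6 CPM in the treatment-named libraries and between 48.9 and 59.2 CPM in the other 5 (log2 difference 1.42, adjusted p = 3.16e-04 in edgeR's quasi-likelihood test). Ehf, an epithelial ETS factor, was at 19.7 and 23.9 CPM against 84.1 to 124.9 CPM (log2 difference 2.26, adjusted p = 3.92e-04), and its relative Elf3 was at 39.4 and 40.2 CPM against 78.0 to 105.3 CPM (log2 difference 1.22, adjusted p = 0.00233). F11r, a junction adhesion molecule, was also higher, by 0.91 (adjusted p = 0.00473). Of all genes tested, 4.22% were lower in db number libraries, among them the keratin Krt80, at -0.58 (adjusted p = 0.0280), and the apical lectin Lgals4 at -1.19 (adjusted p = 0.0413). Over all lists, those of other cells included, 18 genes passed in edgeR's quasi-likelihood test. They take in the macrophage gene Msr1, at 1.22 (adjusted p = 0.0330), and the endocrine genes Iapp, at -0.40 (adjusted p = 0.0225), and Chga, at -0.32 (adjusted p = 0.0470). The calls rest on 2 treatment-named libraries: without AAV-GFP replicate 1 or without AAV-Adipsin replicate 1, 2 of 18 list genes passed, Ehf (adjusted p = 0.0294 and 0.0247) and Tjp3 (adjusted p = 0.0224 and 0.0199), while Elf3 (0.0842 and 0.0743) and F11r (0.111 and 0.128) did not. Krt7, Krt8 and Krt18 were not among the genes that passed.

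**Figure D5:**
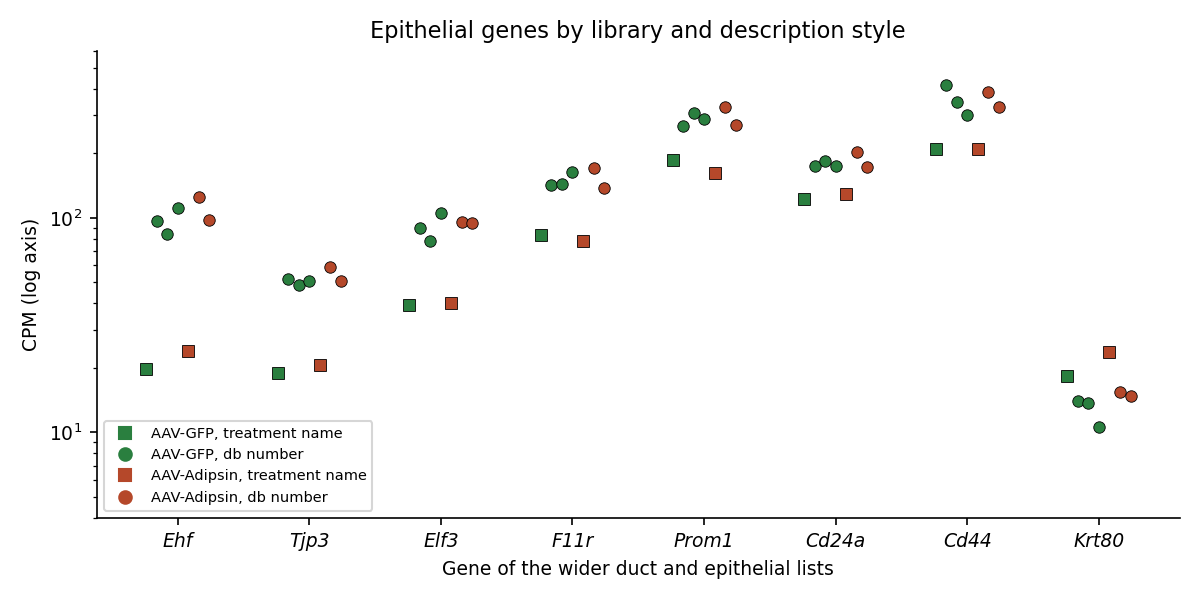
CPM on a log axis of 8 genes of the wider duct and epithelial lists that passed the threshold by description style, with 1 point per library. Cd44 is from the list of osteopontin receptors. Squares are libraries described by a treatment name and circles those described by a db number. Tjp3 lies at 18.9 and 20.6 CPM in the squares and at 48.9 to 59.2 CPM in the circles.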

How the data were processed

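RNA was sequenced from islets of 7 db/db mice, 4 given AAV-GFP and 3 given AAV-Adipsin, after mRNA libraries were made with a stranded kit, per the labels' protocols. The authors deposited read counts per gene as whole numbers that were not normalised, in 1 table; 0 columns were unused. Reads were aligned with STAR to mm10 (GRCm38), per the submitters' processing notes. STAR's version, the program that counted reads, the strand option and the annotation release: not given in the sources used here. Of 51912 gene identifiers, 51719 were matched to GENCODE M21 symbols.

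Counts were tested in R 4.3.3 with edgeR 4.0.16 (filterByExpr, TMM scaling, robust quasi-likelihood F test, two-sided) and adjusted by Benjamini-Hochberg over every gene tested (threshold 0.05). Total counts of 29601707 to 43997400 a library leave genes with few counts with wide counting intervals. RPKM used the exon bases of each gene. Log2 CPM carried a prior count of 2. Description style was tested with treatment in the model. The scripts were tested on simulated data.

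The duct cell genes and all lists were chosen with earlier results of these data known. Named genes were the 9 duct genes, up to 3 members of each list with the smallest p and up to 2 with the highest CPM, members past the threshold, and the 5 profiles nearest to Krt19. Sox9, Muc6, Muc5b, Upk3b, Bnc1, Upk1b and the genes near Spp1 were named after their values were seen. Alternatives were other scalings and filters, DESeq2 1.42.0, limma-voom (limma 3.58.1), the replicate number as a block, and removal of libraries. Other gene lengths and counts of calls by style were added after the data were seen.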

Additional observations from a re-analysis of the deposited data

Results flagged for a closer look

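Krt7 in AAV-GFP was marked because 1 of its 4 samples lay far from the rest. AAV-GFP replicate 1, at 943 CPM, was above the other 3, at 851 to 861 CPM, and the gap to the nearest made up 0.889 of the whole range, over Dixon's critical value for 4 samples. Such a mark arises by chance in about 1 in 20 groups, and 9 genes were looked at. In AAV-Adipsin the highest of the 3 Krt7 values was that of replicate 1, at 883 CPM. These are the libraries described by a treatment name.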

How the results depend on the processing

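None of the 9 duct cell genes passed the threshold by treatment under any alternative run, and their adjusted p ran from 0.756 to 1.00; Cftr and Onecut1 were filtered out under some. Genes called by treatment, 1 in edgeR, were 0 without the filter on low counts, 0 with limma-voom, 0 without both treatment-named libraries, 4 with DESeq2 and 0 to 1 when 1 library was left out. Signs of small differences turned: Krt8 was -0.040 and Cldn4 -0.020 with limma-voom, and Krt18 was 0.044 without both treatment-named libraries. With 1 library left out, log2 fold changes ran from -0.95 to 0.13 for Krt19, -0.49 to 0.31 for Krt8, -0.41 to 0.17 for Krt18, -0.89 to 0.22 for Muc1, -0.17 to 0.38 for Cftr and -0.30 to 0.17 for Cldn4, and the style difference of Cftr ran from -0.095 to 0.88. Muc1 passed by style with DESeq2 (1.55) and without AAV-Adipsin replicate 3 (1.77). Genes called by style, 1616 in edgeR, were 2533 with DESeq2 and 39 to 4348 when 1 library was left out: leaving out AAV-GFP replicates 1, 3 and 4 in turn gave 39, 671 and 4348, and leaving out AAV-Adipsin replicates 1, 2 and 3 gave 55, 346 and 501. They split into 920 higher and 696 lower in db number libraries, 711 and 892 under upper-quartile scaling and 759 and 820 with library totals alone. The keratin ratio was 2.84 from counts with no length and 2.41 with lengths inside the RefSeq bounds. With the replicate block, Krt8 was -0.16, Cldn4 -0.081 and Spp1 0.77 (adjusted p = 0.756), and 1 gene was called; the numbers do not pair the samples, since deviations of same-numbered libraries correlated at 0.808, 0.019 and 0.053 over 12620 genes, and not every library was nearest to its own number. The cause of these shifts was not tested. Depth limits Cftr and Onecut1, with 5 to 23 counts a library.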
